A study of Mus musculus with 24 samples.

Results

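Day 2 after activation of an inhibitory chloride channel in the entorhinal cortex was compared with vehicle: 6 day 2 libraries against 6 vehicle libraries, 12 of the 24 bulk RNA sequencing libraries of the study. Libraries were chosen by the treatment label alone, and the comparison ran across every gene that passed the filter on low counts. All mice, vehicle included, were adults of 2 to 4 months with genotype tg/tg, and combined the driver Nop-tTA Line S with the responder TRE-GlyCl-YFP Line 9531. In this pair of transgenes a neuropsin (Klk8) promoter fragment drives the tetracycline transactivator tTA, which switches on GlyCl fused to YFP in a subset of entorhinal neurons, mainly of the superficial layers. Vehicle held 4 females and 2 males and day 2 held 3 of each, and the same line was also sampled at day 1 and day 3 (6 libraries each). The labels name neither the activating agent, nor its dose, nor the time at which vehicle tissue was taken, and a separate animal behind each library is implied by its own animal number but not stated. Were some libraries from the same animal, the spread behind the p-values would be partly technical.

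GlyCl is an engineered glycine receptor: when its ligand opens it, chloride enters and the neuron is held silent. The entorhinal cortex is the main gateway between neocortex and hippocampus, and its superficial neurons are known for their vulnerability in ageing and Alzheimer's disease. Microglia, the resident macrophages of the brain, and astrocytes answer disturbed neurons with chemokines, complement and cytoskeletal genes, while injured neurons switch on factors such as Atf3.

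Depth ranged from 16.7 to 20.1 M counted reads in the day 2 libraries and from 17.8 to 23.4 M in vehicle. The neuronal markers checked, apart from Klk8, were abundant, as the labelled tissue requires: Rbfox3 was at 306 to 342 CPM (reads per M counted reads), Reln at 120 to 163 CPM and Calb1 at 129 to 173 CPM over the 12 libraries. Wfs1 was at 180 to 267 CPM, while Klk8 was at only 1.12 to 2.74 CPM. Of the dentate gyrus markers, Prox1 was at 11.7 to 16.8 CPM, C1ql2 at 5.23 to 13.4 CPM, Dsp at 0.645 to 2.19 CPM and Lct at 0.656 to 1.94 CPM. C1ql2 differed by 0.34 ± 0.16 on the log2 scale between day 2 and vehicle without passing (edgeR adjusted p = 0.95). It was the 1 gene above 0 among the 8 dentate and hippocampal genes tested, whose median was -0.135 with none called. Of all genes tested, 50.3% were above 0. Pantr1, of the same list, showed -0.24 ± 0.10 (edgeR adjusted p = 0.879). In all 24 libraries the sex-linked transcripts matched the sex label. Ttr, the main transcript of the choroid plexus, was at 562 to 1170 CPM in 8 of the 24 libraries (vehicle 5 and day 2 libraries 4 and 6 among them) and at 8.28 to 25.9 CPM in the other 16. All calls were also made without these 8 libraries, a choice made after seeing the data.

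A small set of immune and injury genes was higher at day 2 than in vehicle, and no gene was lower past the test. Of 16767 genes tested, 11 were called at an adjusted p under 0.05 (edgeR quasi-likelihood test), 0.0656% of the genes tested, and all 11 were higher at day 2. They are the chemokines Ccl3, Ccl4 and Ccl6, the receptors Cd180 and Cd40, the complement component C4b, the lysosomal transporter Slc15a3, the microglial secreted protein Olfml3, the astrocyte filament Gfap, and the injury genes Ecel1 and Atf3. None was called lower by edgeR, DESeq2 or limma voom with all libraries and the filter on low counts, although 412 genes (2.46% of those tested) were lower and 460 (2.74%) higher at an unadjusted edgeR p under 0.05. Lower calls appeared in other fits: Gfod1 without day 2 library 3, Castor1 without vehicle library 3, and 35 genes without the filter. That unfiltered edgeR fit also called Ttr, with a change of 0.9 at an adjusted p of 1.72e-82. The main fit gave Ttr 0.91 ± 1.36 (edgeR adjusted p = 0.991), so the unfiltered fit estimated a far smaller spread. Leaving out 1 library gave 7 to 12 calls, with 7 without vehicle library 5 or day 2 library 2, and leaving out the Ttr-rich libraries gave 2. The rest of the transcriptome moved little. Over the 6111 genes at a mean of 5 log2 CPM or more, the central 90% of log2 fold changes lay between -0.10 and 0.08, and over all genes the median was 0.000586. The log2 fold change was above 0 in 50.3% of all genes tested and in 47.6% of those 6111. The counts of list members above or below 0 given further on stand against these shares. Of the 29 genes with a log2 fold change above 1, 24 had a mean below 1 log2 CPM, where the median standard error was 0.298. In 44 genes, 0.262% of those tested, every day 2 library lay above every vehicle library, and 10 of the 11 called genes were among them, Ecel1 being the exception. In 6 genes, 0.0358% of those tested, every day 2 library lay below every vehicle library. Those 6 included Slc32a1, the vesicular transporter for GABA, and none of them was called.

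**Figure D1:**
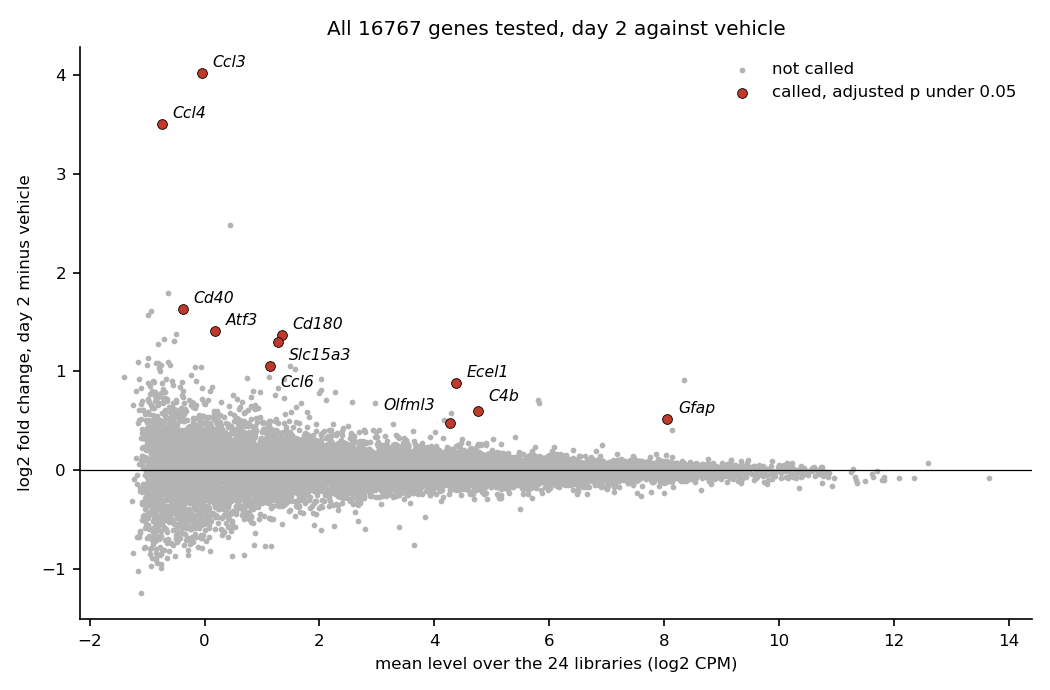
Each point is 1 of the 16767 genes tested, placed by its mean level over the 24 libraries (log2 CPM, horizontal) and its log2 fold change at day 2 against vehicle (vertical). The 11 called genes, in red with their symbols, all lie above 0, and the spread of grey points narrows from left to right.

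The largest changes were in 2 neighbouring chemokine genes that were close to silent in vehicle. Ccl3 (ENSMUSG00000000982.6) encodes MIP-1 alpha, which draws monocytes, microglia and T cells. Its level in vehicle was 0 CPM in the lowest library, 0.0533 CPM at the median and 0.102 CPM in the highest, and at day 2 it was 0.5, 0.786 and 1.64 CPM. Every day 2 library thus stood above every vehicle library, and day 2 library 2 was highest. The log2 fold change was 4.02 ± 0.53 (SE, n = 6 per group; edgeR adjusted p = 0.000397). In reads this was 6 over all vehicle libraries and 100 over all day 2 libraries, a ratio of 17.6 per unit of depth (95% interval 7.81 to 49.1, exact binomial, counting error only). Ccl4 (ENSMUSG00000018930.4), MIP-1 beta, is a chemokine with similar targets. It stood at 0, 0.0487 and 0.108 CPM in vehicle and at 0.275, 0.526 and 0.853 CPM at day 2 (lowest, median, highest), again with no overlap. Its log2 fold change was 3.51 ± 0.52 (edgeR adjusted p = 0.00114), and the reads were 5 and 59, a ratio of 12.5 (5.05 to 39.8). Ccl6, a chemokine of macrophages and microglia, was more abundant at baseline, with 0.939, 1.02 and 1.57 CPM in vehicle and 1.6, 2.17 and 3.41 CPM at day 2. Its groups were separated by a narrow gap, and its log2 fold change was 1.05 ± 0.21 (edgeR adjusted p = 0.0442). Ccl3 and Ccl4 are similar in sequence, and reads shared between them would leave both values uncertain.

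Ccl3 and Ccl4 held their calls whichever of the 12 libraries was left out (adjusted p at most 0.00329 and 0.00957). Ccl6 kept its call in 4 of 12 such fits. It lost it without day 2 library 1, 2, 3 or 6 or without vehicle library 2, 3, 5 or 6, where its adjusted p ran from 0.0555 to 0.231 and its log2 fold change stayed at 0.908 or more. Without the 8 Ttr-rich libraries the adjusted p was 0.0168 for Ccl3, 0.161 for Ccl4 and 0.42 for Ccl6, with log2 fold changes of 4.51, 3.27 and 0.896. The fits that left out 1 library of day 2 or vehicle kept all those of day 1 and day 3. With only the 12 libraries compared, Ccl3 and Ccl4 failed the filter on low counts and were not tested.

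Ccl6, Ccl3 and Ccl4 stand side by side in the Ccl cluster of mouse chromosome 11, in that order among the Ccl genes annotated there in GENCODE M21. Ccl9, on the other side of Ccl6, had a log2 fold change of 0.63 ± 0.20 (adjusted p = 0.723), and Ccl12, further along, one of 0.53 ± 0.57 (adjusted p = 0.99). Neither passed the test, and both were looked up for their place in the cluster after the values were seen. The 250 bases before the start of Ccl3 and Ccl6, members of this cluster that rose together, are given from RefSeq (build GRCm38.p6, another build than that of the counts), 5′ to 3′ along the gene. Capitals mark TATAA or its reverse complement TTATA, the letters of a TATA box.
Ccl3, chr11:83649379-83649628, minus strand: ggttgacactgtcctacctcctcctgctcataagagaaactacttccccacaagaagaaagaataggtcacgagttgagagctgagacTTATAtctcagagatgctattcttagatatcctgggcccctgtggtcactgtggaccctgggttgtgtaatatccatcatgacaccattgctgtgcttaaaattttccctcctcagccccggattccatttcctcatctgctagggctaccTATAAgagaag
Ccl6, chr11:83593088-83593337, minus strand: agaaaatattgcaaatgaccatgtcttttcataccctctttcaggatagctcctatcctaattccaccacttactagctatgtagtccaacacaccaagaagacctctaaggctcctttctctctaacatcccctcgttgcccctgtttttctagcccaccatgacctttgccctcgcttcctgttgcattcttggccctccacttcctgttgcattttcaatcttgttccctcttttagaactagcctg
In the Ccl3 sequence TATAA lay 11 to 7 bases before the start and TTATA 162 to 158 bases before it, and the Ccl6 sequence held neither. Of all 32851 RefSeq promoters of this length, 22.8% held the motif on either strand.

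The list of chemokines and cytokines held 22 genes, of which 14 passed the filter on low counts. Of these 14, the 3 just described were called higher and none lower, and their median log2 fold change was 0.42 against 0.000586 over all genes tested. The other 8 (Ccl2, Ccl5, Ccl7, Cxcl1, Cxcl9, Il1b, Il6 and Tnf) were too low to test. Cxcl10, an interferon-induced chemokine singled out after its values were seen, averaged 0.0609 CPM in vehicle and 0.366 CPM at day 2, where libraries ran from 0 to 0.826 CPM. Its log2 fold change of 2.48 ± 0.77 did not pass (adjusted p = 0.689). Among the 6 chemokine receptor genes tested there was no call, and their median was -0.02. Cx3cr1, the fractalkine receptor of microglia, was at 50.4, 52.2 and 59.7 CPM in vehicle and 54.2, 55.4 and 65.2 CPM at day 2, with a log2 fold change of 0.10 ± 0.06 (adjusted p = 0.982). The 14 NF-kB subunits, inhibitors and feedback targets were not called either, none had an unadjusted p under 0.05, and their median was -0.02.

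**Figure D2:**
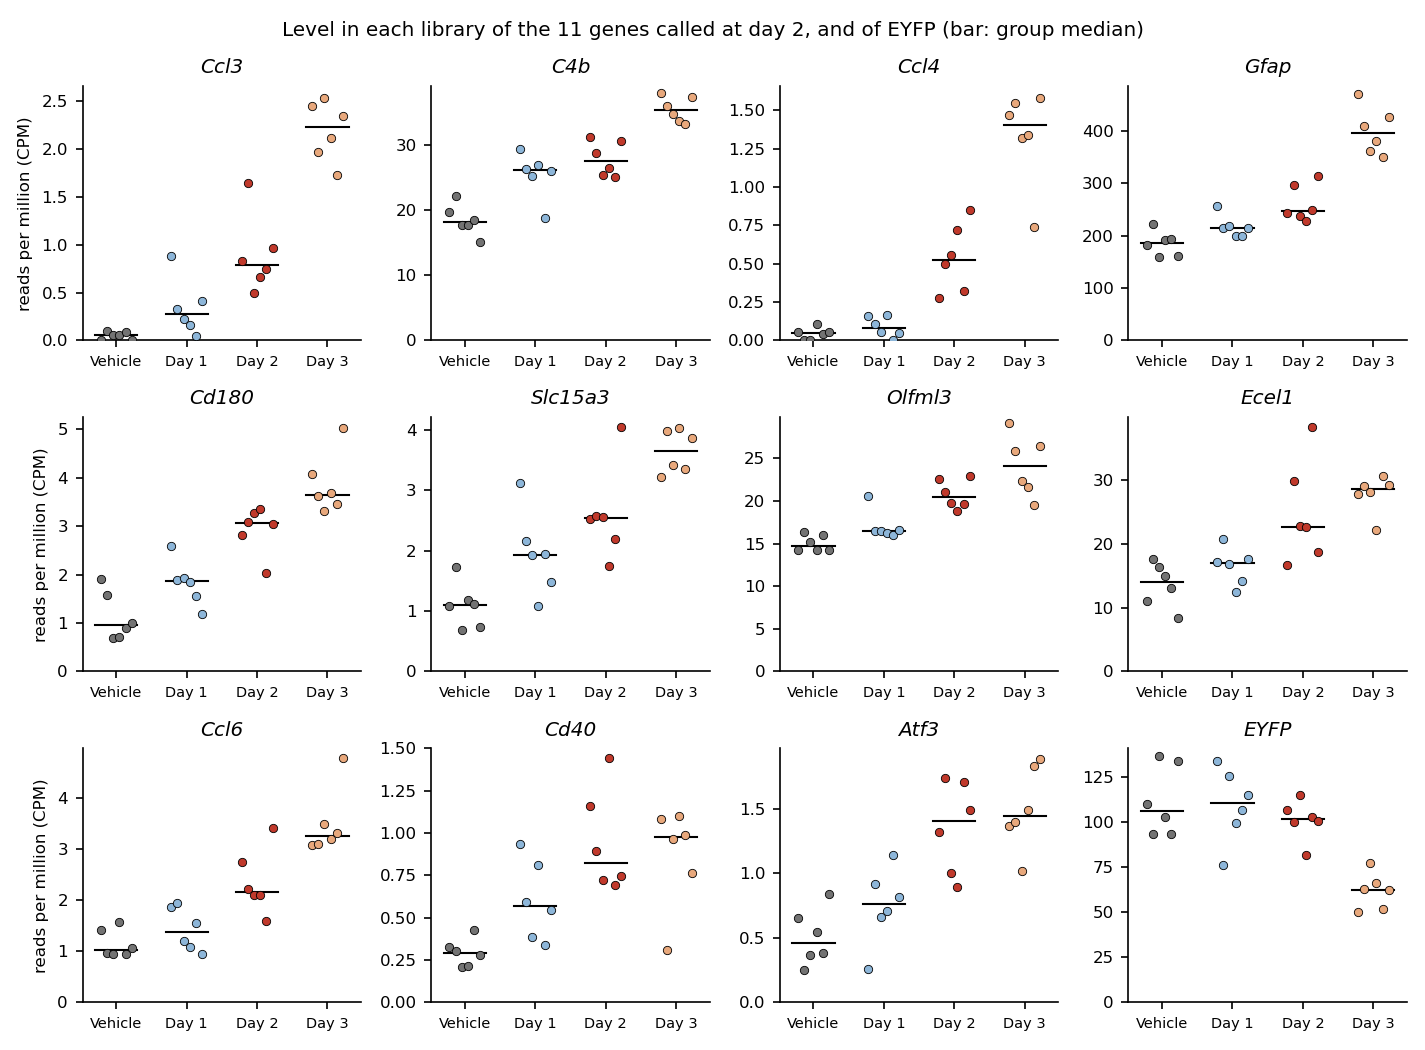
Level of each of the 11 called genes and of the transgene marker EYFP in the 24 libraries (CPM, vertical axis from 0, a different scale in each panel), by group, with a bar at the group median. Day 2 points lie above all vehicle points in every panel but those of Ecel1, where 1 day 2 library overlaps vehicle, and EYFP, where the groups overlap.

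Among receptors, Cd180 and Cd40 rose. Cd180 is a Toll-like receptor relative that pairs with Ly86 and modulates the response to bacterial lipids. It was at 0.681, 0.954 and 1.91 CPM in vehicle and 2.03, 3.06 and 3.35 CPM at day 2, so that the lowest day 2 library (library 5) just cleared the highest vehicle library (library 1). The log2 fold change was 1.36 ± 0.22 (edgeR adjusted p = 0.00332). Ly86, its partner, was at 4.05, 4.56 and 5.25 CPM and then 4.22, 5.88 and 6.72 CPM; 5 of 6 day 2 libraries exceeded all vehicle libraries, but the change of 0.35 ± 0.13 did not pass (adjusted p = 0.759). Tlr2, a sensor of bacterial lipoproteins, showed 0.93 ± 0.31 (adjusted p = 0.749). Of 16 Toll-like receptor genes and partners tested, Cd180 was the 1 called, 15 had a log2 fold change above 0, and the median was 0.20. Cd40, the TNF receptor family member through which T cells activate macrophages and microglia, was counted in few reads, 35 over all vehicle libraries and 103 over all day 2 libraries. Its levels were 0.210, 0.293 and 0.427 CPM in vehicle and 0.693, 0.820 and 1.44 CPM at day 2, with no overlap. The log2 fold change was 1.63 ± 0.33 (edgeR adjusted p = 0.0473).

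The Cd180 call held in all 12 fits that left out 1 library. Without the Ttr-rich libraries its adjusted p was 0.217, with only the 12 libraries compared it was 0.0683, and the log2 fold change stayed at 0.868 or more. The Cd40 call was lost in 10 of 12 such fits, without any 1 of the 6 vehicle libraries or without day 2 library 1, 2, 4 or 6, with adjusted p from 0.0636 to 0.193 and log2 fold changes of 1.46 or more. Without the Ttr-rich libraries the Cd40 change was 1.69 with adjusted p = 0.188.

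Complement rose at its classical pathway component C4b and not detectably elsewhere. C4b was at 15.1, 18.2 and 22.2 CPM in vehicle and at 25.2, 27.7 and 31.3 CPM at day 2. The lowest day 2 library lay above the highest vehicle library, and the log2 fold change was 0.59 ± 0.09 (edgeR adjusted p = 0.00114). The call held whichever library was left out, and without the Ttr-rich libraries the change was 0.59 with adjusted p = 0.118. Of 16 complement genes tested C4b alone was called, 14 had a log2 fold change above 0, and the median was 0.16. The anaphylatoxin receptors C3ar1 (0.79 ± 0.25, adjusted p = 0.723) and C5ar1 (0.84 ± 0.29, adjusted p = 0.759) did not pass, nor did the complement receptor subunit Itgam (0.30 ± 0.13, adjusted p = 0.92). C4b lies beside a near-identical copy in the mouse genome, so its value is uncertain where reads were divided between copies.

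Slc15a3 and Olfml3 rose at day 2. Slc15a3, a transporter that moves histidine and small peptides out of lysosomes, was at 0.681, 1.10 and 1.73 CPM in vehicle and 1.74, 2.54 and 4.05 CPM at day 2. The groups touched without overlapping, day 2 library 6 stood well above the other 5, and the log2 fold change was 1.30 ± 0.22 (edgeR adjusted p = 0.00531). Olfml3, a secreted glycoprotein enriched in microglia, was at 14.2, 14.8 and 16.3 CPM and then 18.8, 20.5 and 22.9 CPM. Its groups were tight and separate, with a log2 fold change of 0.48 ± 0.08 (edgeR adjusted p = 0.00721). Both calls held in all 12 fits that left out 1 library. Without the Ttr-rich libraries the adjusted p was 0.117 for each, with changes of 1.27 and 0.53, and with only the 12 libraries compared it was 0.0855 for Slc15a3.

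Of 13 genes of homeostatic microglia, Olfml3 was called, 9 had a log2 fold change above 0 and the median was 0.11. Fcrls, an Fc receptor-like gene of microglia, did not pass in edgeR (0.51 ± 0.11, adjusted p = 0.0965) and was called by DESeq2 (adjusted p = 0.0075). Of the 8 pan-microglial genes none was called and the median was 0.13. Their summed level was 133 to 167 CPM in vehicle and 143 to 182 CPM at day 2, which overlap. Aif1, the microglial calcium-binding protein IBA1, was at 5.90, 6.48 and 6.87 CPM and then 4.56, 6.09 and 7.52 CPM (-0.09 ± 0.10, adjusted p = 0.99). In bulk tissue, more or fewer cells of a type and more or less RNA per cell cannot be told apart. Of 19 genes of activated microglia tested, Ccl6 was the 1 called and the median was 0.17. Cd68, a lysosomal glycoprotein of phagocytes, reached 0.40 ± 0.12 (adjusted p = 0.642), and Trem2, a lipid receptor of microglia picked out after its values were seen, reached 0.23 ± 0.08 (adjusted p = 0.759). Trem2 levels at day 2 all lay above those of vehicle. Of 14 lysosomal genes Slc15a3 was called and the median was 0.14, with Ctsd, the protease cathepsin D, at 0.17 ± 0.05 (adjusted p = 0.749) and Ctsz, cathepsin Z, at 0.25 ± 0.08 (adjusted p = 0.733). Fcer1g, the shared signalling chain of Fc receptors, reached 0.32 ± 0.11 (adjusted p = 0.759), and none of the 10 Fc receptor and SYK pathway genes tested was called.

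Interferon-induced and cell division genes did not pass at day 2. None of 24 interferon response genes was called and 21 had a log2 fold change above 0, with a median of 0.16. Isg15, a ubiquitin-like antiviral protein, was at 0.661, 0.882 and 1.42 CPM in vehicle and 0.993, 1.39 and 2.09 CPM at day 2 (0.66 ± 0.26, adjusted p = 0.811). The guanylate-binding protein Gbp3 was the only other list member with an unadjusted p under 0.05 (0.36 ± 0.17, adjusted p = 0.95). None of 18 proliferation genes tested was called, 16 had a log2 fold change above 0 and the median was 0.18. Mcm3, part of the replicative helicase, was at 2.04, 2.53 and 2.82 CPM and then 2.83, 3.26 and 4.02 CPM. Its groups did not overlap, but the change of 0.44 ± 0.15 did not pass (adjusted p = 0.759), and Mki67, a marker of dividing cells, reached 0.50 ± 0.23 (adjusted p = 0.92). The 10 MHC class I genes had a median of -0.03 and none was called.

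Among astrocyte genes Gfap rose, with little else. Gfap, the intermediate filament of reactive astrocytes, was at 159, 186 and 223 CPM in vehicle and 228, 247 and 313 CPM at day 2. The lowest day 2 library (library 4) was just above the highest vehicle library (library 2), and the log2 fold change was 0.51 ± 0.08 (edgeR adjusted p = 0.00116). Of the 11 calls, this one and that of Ccl3 also held without the Ttr-rich libraries (Gfap 0.54, adjusted p = 0.0305), and it held whichever library was left out. Of 16 reactive astrocyte genes tested no other was called, and the median was 0.06. Serpina3n, a protease inhibitor often raised with Gfap, was at 42.4, 45.6 and 48.0 CPM and then 44.7, 46.8 and 55.5 CPM (0.07 ± 0.05, adjusted p = 0.987). The 11 homeostatic astrocyte genes had a median of -0.04 with none called, and Slc1a3, the glutamate transporter GLAST, showed -0.11 ± 0.05 (adjusted p = 0.907).

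Among injury and stress genes, Ecel1 and Atf3 were called. Ecel1, a membrane metalloprotease-like protein induced in injured neurons, was at 8.43, 14 and 17.6 CPM in vehicle and 16.7, 22.7 and 38.4 CPM at day 2. In 5 of 6 day 2 libraries it exceeded all vehicle libraries, with day 2 libraries 5 and 2 highest, and the log2 fold change was 0.88 ± 0.17 (edgeR adjusted p = 0.0247). Atf3, a basic leucine zipper transcription factor induced by axon damage and by the integrated stress response, was at 0.254, 0.463 and 0.843 CPM and then 0.898, 1.41 and 1.74 CPM. The groups did not overlap, and the log2 fold change was 1.41 ± 0.29. Its edgeR adjusted p of 0.0499 was the closest to the threshold among called genes, and the first genes beyond the threshold, Gas2l3 and Sh2d3c, were at 0.0695. The Ecel1 call was lost without vehicle library 1, 5 or 6 or day 2 library 2 (adjusted p from 0.0725 to 0.137, change 0.717 or more). The Atf3 call was lost in 9 of 12 such fits, without vehicle library 1, 2, 3, 4 or 5 or day 2 library 1, 2, 5 or 6 (adjusted p from 0.0809 to 0.252, change 1.28 or more). Without the Ttr-rich libraries the adjusted p was 0.117 for Ecel1 and 0.42 for Atf3, and with limma voom neither was called. Of 16 axon injury genes tested these were the 2 called, 15 had a log2 fold change above 0 and the median was 0.07. Adcyap1, a neuropeptide raised after injury, reached 0.24 ± 0.11 (adjusted p = 0.95).

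The 250 bases before the start of Atf3 are given because Atf3 is a known target of stress-activated ATF and CREB factors (RefSeq, build GRCm38.p6, 5′ to 3′ along the gene). Capitals mark ACGTCA, the reverse complement of the cyclic AMP response core TGACGT, and TTGCATCA, the reverse complement of TGATGNAA, the C/EBP-ATF response element bound by ATF4.
Atf3, chr1:191183334-191183583, minus strand: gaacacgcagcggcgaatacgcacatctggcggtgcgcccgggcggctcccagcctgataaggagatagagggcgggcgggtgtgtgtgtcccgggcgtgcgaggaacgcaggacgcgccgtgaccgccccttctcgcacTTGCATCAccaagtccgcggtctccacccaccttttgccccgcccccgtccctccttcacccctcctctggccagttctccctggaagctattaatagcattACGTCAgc
ACGTCA lay 8 to 3 bases before the start and TTGCATCA 110 to 103 bases before it, with no overlap between them. Of all 32851 promoters, 6.47% held TGACGT and 3.45% held TGATGNAA on either strand. Among the 7 called genes with a promoter sequence (Ccl3, Gfap, Cd180, Olfml3, Ecel1, Ccl6 and Atf3), Atf3 was the 1 with either. The AP-1 letters TGANTCA, in 6.75% of promoters, and the STAT letters TTCNNNGAA, in 7.02%, were in none of the 7. Each motif was read on both strands. For each called gene only the first RefSeq promoter entry was read, so any other annotated start was not searched, while the shares count all 32851 promoters.

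Genes of the integrated stress response, the pathway through which ATF4 raises amino acid and redox genes, gave no further call among 26 tested, with 17 above 0 and a median of 0.05. Sesn2, a stress-induced sensor that restrains mTORC1, was at 14.1, 15.8 and 17.6 CPM in vehicle and 17.9, 19.2 and 22.2 CPM at day 2. Its groups did not overlap, and its change of 0.32 ± 0.07 did not pass in edgeR (adjusted p = 0.0941) but did in DESeq2 (adjusted p = 0.0151). Ppp1r15a, the phosphatase subunit GADD34 that ends the response, showed 0.27 ± 0.07 (adjusted p = 0.367), and Trib3, a pseudokinase target of ATF4, 1.04 ± 0.31 (adjusted p = 0.612) with no overlap between groups. Hmox1, the haem-degrading enzyme, showed 0.36 ± 0.12 (adjusted p = 0.749), the only one of 10 NRF2 targets with an unadjusted p under 0.05. The 12 genes of the unfolded protein response, 10 heat shock chaperones and 13 BCL2 family genes tested had medians of 0.007, -0.007 and -0.007 with none called. Of 14 p53 targets tested none was called. The pro-apoptotic Bbc3 (PUMA) showed 0.27 ± 0.09 (adjusted p = 0.727) and the cell cycle inhibitor Cdkn1a -0.48 ± 0.16 (adjusted p = 0.757).

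**Figure D3:**
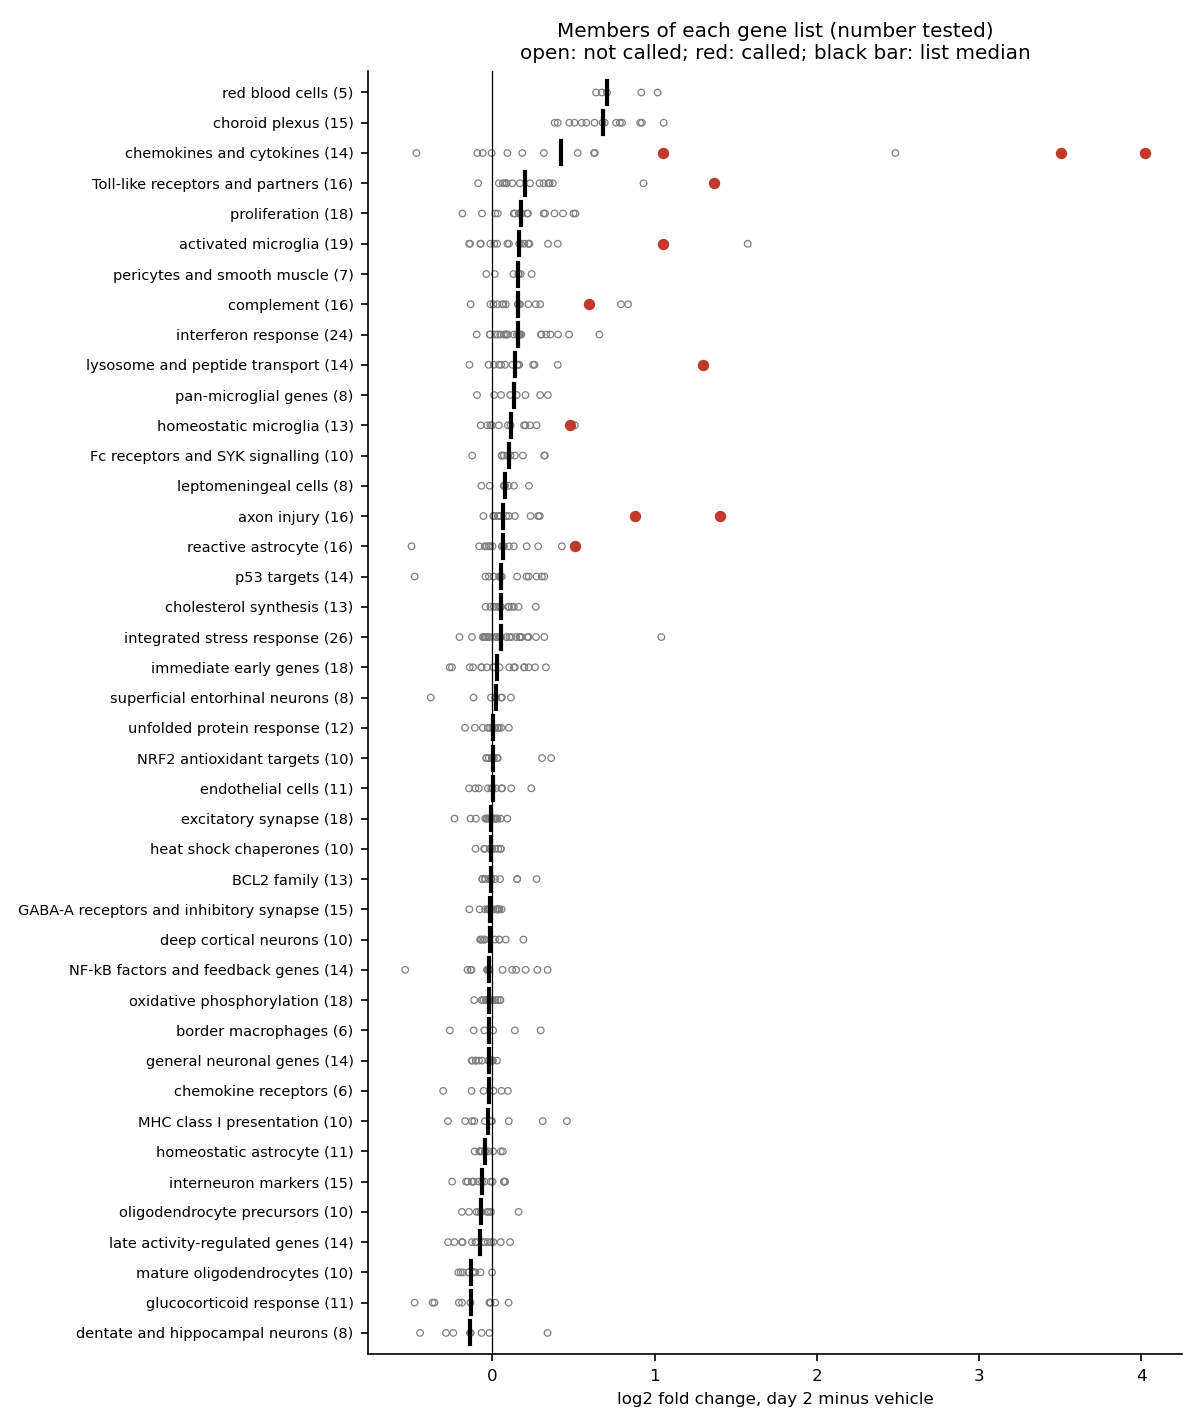
Log2 fold change at day 2 against vehicle of the tested members of 42 of the 43 gene lists (1 row a list, number tested in brackets), with the list median as a black bar and called genes filled red. Red points occur in 8 rows, all to the right of 0, and most medians lie close to 0.

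The transgene marker and the entorhinal layer markers were not called at day 2. EYFP, the counted marker of the transgene, was at 93.7, 107 and 137 CPM in vehicle and 81.8, 102 and 115 CPM at day 2, overlapping ranges with a log2 fold change of -0.18 ± 0.11 (edgeR adjusted p = 0.982). Glra1, the glycine receptor subunit, was at 9.71, 13.1 and 16.1 CPM and then 9.22, 12.7 and 13.8 CPM (-0.12 ± 0.13, adjusted p = 0.99). Whether its reads came from the transgene or from the mouse gene was not tested. Reln, the secreted protein of layer II entorhinal neurons, and Calb1, the calcium buffer of the other main layer II class, showed 0.06 ± 0.07 and 0.02 ± 0.05 (adjusted p = 0.99 and 0.993). Klk8, the neuropsin gene whose promoter drives the transgene, showed -0.38 ± 0.21 (adjusted p = 0.966), and Wfs1, a marker of pyramidal clusters, -0.12 ± 0.06 (adjusted p = 0.95). The 8 superficial entorhinal genes had a median of 0.02.

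Other neuronal lists gave no call and medians close to 0. Of 14 general neuronal genes 3 had a log2 fold change above 0 and the median was -0.02. Camk2a, the kinase of excitatory synapses, was at 3500, 3770 and 4030 CPM in vehicle and 3410, 3520 and 3690 CPM at day 2 (-0.10 ± 0.04, adjusted p = 0.79), and the neurofilament Nefl showed -0.10 ± 0.04 (adjusted p = 0.886). Among 15 interneuron markers 4 had an unadjusted p under 0.05, all lower, with a median of -0.06. At that threshold 4 of the 14 general neuronal genes and 3 of the 18 excitatory synapse genes were also lower, and none of either list was higher. None of the 15 GABA-A receptor and inhibitory synapse genes reached it. Of all genes tested, 2.46% were lower at that threshold. Slc32a1 was at 85.9, 86.8 and 94.8 CPM and then 74.0, 79.7 and 84.6 CPM. All day 2 libraries lay below all vehicle libraries, but the change of -0.15 ± 0.05 did not pass (adjusted p = 0.749). The neuropeptide Sst (-0.16 ± 0.05, adjusted p = 0.723) and the GABA-synthesizing enzyme Gad1 (-0.11 ± 0.04, adjusted p = 0.733) each had 5 of 6 day 2 libraries below all vehicle libraries. The 18 excitatory synapse genes and the 15 GABA-A receptor and inhibitory synapse genes had medians of -0.01 and -0.01, and Synpo, an actin-binding protein of dendritic spines, showed -0.13 ± 0.05 (adjusted p = 0.759).

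The activity-regulated genes Fos and Arc varied widely between libraries of both groups. Fos, an immediate early transcription factor, was at 17.8, 31.8 and 56.1 CPM in vehicle and 11.3, 45.0 and 53.6 CPM at day 2. Arc, which controls AMPA receptor removal at synapses, was at 108, 188 and 448 CPM and then 53, 242 and 331 CPM. Both ranges overlapped almost entirely, and the log2 fold changes of 0.13 ± 0.39 and 0.05 ± 0.42 did not pass (adjusted p = 0.993 and 0.997) and turned negative without the Ttr-rich libraries (-0.127 and -0.268). Egr3, an activity-induced zinc finger factor, was steadier at 188, 213 and 304 CPM and then 147, 199 and 226 CPM (-0.26 ± 0.12, adjusted p = 0.915). Bdnf, the growth factor, showed -0.13 ± 0.08 (adjusted p = 0.982), the synaptic scaffold gene Homer1 -0.23 ± 0.10 (adjusted p = 0.907) and the sorting receptor Sorcs3 0.11 ± 0.05 (adjusted p = 0.95). None of the 18 immediate early and 14 late activity-regulated genes tested was called, and the medians were 0.03 and -0.08. The median of the immediate early list ran from -0.588 to 0.496 over the alternative settings.

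Oligodendrocyte genes gave no call and small negative values. All 10 mature oligodendrocyte genes had a log2 fold change below 0, with a median of -0.13, where 50.3% of all genes tested were above 0. Mbp, a structural protein of myelin, was at 1040, 1440 and 1490 CPM in vehicle and 1040, 1220 and 1410 CPM at day 2, and Ermn, a cytoskeletal protein of myelinating cells, at 26.7, 30.5 and 33.9 CPM and then 22.5, 26.2 and 28.7 CPM. Both ranges overlapped, with changes of -0.18 ± 0.09 and -0.21 ± 0.08 (adjusted p = 0.95 and 0.794). Among 10 precursor genes the lineage factor Sox10 showed -0.19 ± 0.07 (adjusted p = 0.794) and the median was -0.07. Of 13 cholesterol synthesis genes, whose products serve myelin and synapses, none was called and 11 were above 0. Sqle, squalene epoxidase, reached 0.16 ± 0.06 (adjusted p = 0.757). Among 11 glucocorticoid-responsive genes none was called, with a median of -0.13.

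Genes with the smallest unadjusted p below the calls were mixed in kind. Gas2l3, a linker of actin and microtubules, was at 1.62, 1.81 and 2.26 CPM in vehicle and 2.59, 2.88 and 3.67 CPM at day 2 (0.73 ± 0.15). Sh2d3c, a signalling adaptor, was at 24.3, 29.1 and 30.5 CPM and then 31.7, 35.1 and 40.6 CPM (0.32 ± 0.07). Neither pair of groups overlapped, and DESeq2 called both, as it did Stbd1, a glycogen-binding protein (0.83 ± 0.20), and Slc47a1, a cation exporter (0.81 ± 0.19), which edgeR did not (adjusted p = 0.203 and 0.238). Arid5a, which stabilizes inflammatory messenger RNAs, was separated between groups at 0.39 ± 0.10 (adjusted p = 0.367). Of the lower genes Castor1, the arginine sensor of mTORC1, had the smallest unadjusted p, with 1.47, 3.08 and 3.71 CPM in vehicle and 1.17, 1.69 and 2.24 CPM at day 2 (-0.77 ± 0.19, adjusted p = 0.361). Next were Paqr7, a membrane progestin receptor (-0.18 ± 0.05), Cystm1 (-0.23 ± 0.06), Cxxc5, a zinc finger regulator (-0.20 ± 0.05), Gm10419 (-0.14 ± 0.04), Zfp712 (-0.34 ± 0.09) and Tmem200b (-0.61 ± 0.16), each at adjusted p = 0.367. Slc26a8 (-0.40 ± 0.11), the kinase Hipk4 (-0.17 ± 0.05) and Gfod1 (-0.24 ± 0.07) had adjusted p-values of 0.432, 0.434 and 0.438. Castor1 was called without vehicle library 3 (-0.90, edgeR adjusted p = 0.0247) and Gfod1 without day 2 library 3 (-0.30, adjusted p = 0.0316).

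Markers of blood and choroid plexus moved with single libraries. The summed level of 15 choroid plexus genes was 145 to 208 CPM in 5 vehicle libraries and 1920 CPM in vehicle 5, and 168 to 213 CPM in 4 day 2 libraries and 1920 and 1900 CPM in day 2 libraries 4 and 6. The same day 2 libraries had the highest summed level of 5 red blood cell genes, 309 and 239 CPM, against 68.4 to 152 CPM in the other 4 and 65.4 to 157 CPM in vehicle. Alas2, the erythroid enzyme of haem synthesis, and Hbb-bt, a beta globin, showed 1.02 ± 0.26 and 0.92 ± 0.30 without passing (adjusted p = 0.361 and 0.749), and the Alas2 value was 0.39 without the Ttr-rich libraries. Border macrophage genes summed to 8.26 to 19.1 CPM in vehicle and 7.45 to 15.9 CPM at day 2, and genes of blood leukocytes to 1.2 to 2.66 CPM and 1.16 to 1.98 CPM. Of 13 leukocyte genes 1, Cd4, was high enough to test. Removing the Ttr-rich libraries left 5 vehicle and 4 day 2 libraries. In 10 of the 11 called genes these groups did not overlap, Ecel1 being the exception. This was fixed beforehand, because the full groups of those 10 genes were already separate. The 11 log2 fold changes were all above 0 there, but the calls fell to 2, Ccl3 and Gfap. With the red blood cell level as a covariate 7 of the 11 calls remained, those of Olfml3, Ccl6, Cd40 and Atf3 being lost (adjusted p = 0.0709, 0.221, 0.239 and 0.239).

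**Figure D4:**
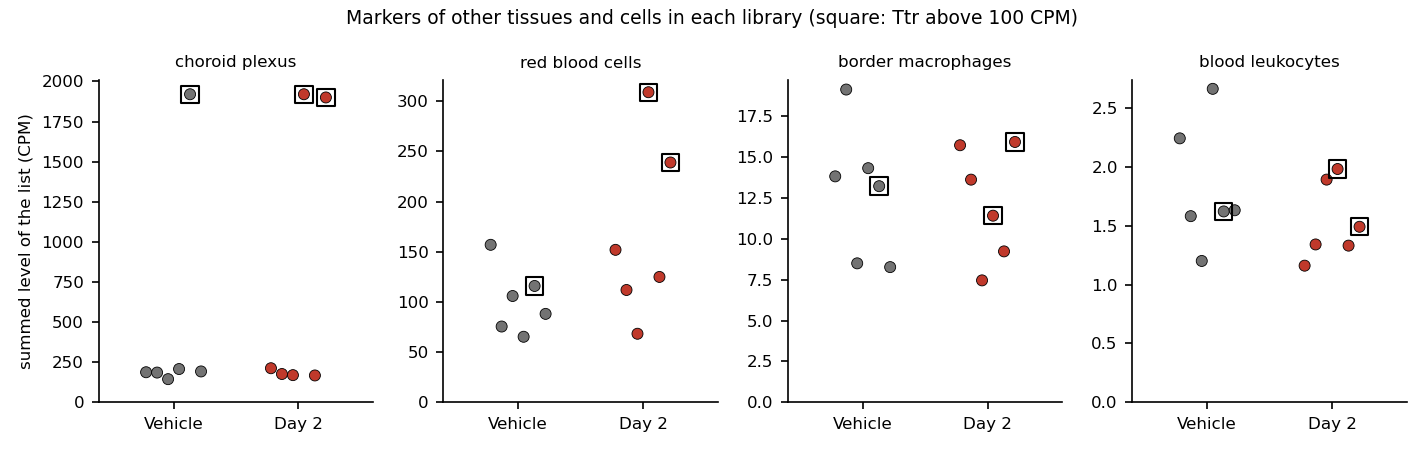
Summed level (CPM, each panel with its own scale from 0) of marker lists of other tissues and cells in the 6 vehicle and 6 day 2 libraries, with a square around libraries above 100 CPM of Ttr. The 3 squared libraries stand near 1900 CPM of choroid plexus genes, and the 2 of day 2 are also highest in red blood cell genes.

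Day 2 was then set against the days on either side of it, in the same fit, to ask which genes moved between consecutive days. These comparisons share the day 2 libraries with the one above, and each gene's values are therefore given side by side. Against day 1, 2 genes were called, 0.0119% of those tested, both higher at day 2. None was called lower by edgeR, DESeq2 or limma voom, while at an unadjusted edgeR p under 0.05 407 genes (2.43%) were higher and 305 (1.82%) lower. Ccl4 ran at 0 to 0.163 CPM at day 1 and at 0.275 to 0.853 CPM at day 2, with no overlap (2.58 ± 0.45, edgeR adjusted p = 0.0323). Mmp15, a membrane-bound matrix metalloprotease, averaged 30.7 CPM at day 1 and 40.3 CPM at day 2 (0.41 ± 0.07, adjusted p = 0.0323). Its mean in vehicle was 33.6 CPM and its change against vehicle did not pass (0.26 ± 0.07, adjusted p = 0.367). Mmp15 lies outside the rule for named genes and is given because the count is 2. Leaving out 1 library gave 0 to 2 calls: none without day 2 library 2, 3, 5 or 6 or day 1 library 1, 3, 5 or 6, and 1 without day 2 library 4 or day 1 library 2. Without the Ttr-rich libraries Mmp15 kept its call (0.48, adjusted p = 0.00756) and Ccl4 did not (2.8, adjusted p = 1). With the leading digits of the animal number as a term neither was called (adjusted p = 0.681 for Mmp15 and 0.529 for Ccl4). The other called genes did not pass between day 1 and day 2: C4b had reached a median of 26.2 CPM at day 1 and 27.7 CPM at day 2 (0.15 ± 0.09, adjusted p = 1), and Ccl3 a median of 0.272 CPM and 0.786 CPM (1.40 ± 0.37, adjusted p = 0.657).

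From day 2 to day 3, 22 genes were called, 0.131% of those tested, 20 higher and 2 lower at day 3; at an unadjusted p under 0.05 the counts were 484 (2.89%) and 345 (2.06%). Gfap, at a median of 247 CPM at day 2, reached 395 CPM (0.61 ± 0.08, edgeR adjusted p = 6.67e-05), and no other gene of the 11 was called in this step. Ccl3 had medians of 0.786 and 2.23 CPM (1.30 ± 0.30, adjusted p = 0.0838), Ccl4 0.526 and 1.41 CPM (1.3 ± 0.30, adjusted p = 0.0685) and C4b 27.7 and 35.5 CPM (0.34 ± 0.08, adjusted p = 0.152). Cd40 and Atf3 had similar medians on both days, 0.820 and 0.975 CPM for Cd40 (-0.11 ± 0.28, adjusted p = 0.999) and 1.41 and 1.44 CPM for Atf3 (0.13 ± 0.25, adjusted p = 0.999). The 2 lower genes were EYFP, with 81.8 to 115 CPM at day 2 and 50.4 to 77.4 CPM at day 3 (-0.72 ± 0.11, adjusted p = 0.00236), and Glra1, with 9.22 to 13.8 CPM and 5.83 to 9.57 CPM (-0.71 ± 0.14, adjusted p = 0.0182). The marker of the transgene thus fell from day 2 to day 3, while its change from vehicle to day 2 had not passed. The transgene is itself a glycine receptor, and whether the Glra1 reads came from it was not tested. EYFP and Glra1 are therefore not shown to be 2 separate falls. Cxcl10 (3.51 ± 0.42, adjusted p = 5.48e-05) and Ccl12, a monocyte-attracting chemokine (3.11 ± 0.40, adjusted p = 6.67e-05), had the largest rises of this step, and both are given here after their values were seen. Of the 24 interferon response genes, none called at day 2 against vehicle, 6 were called higher at day 3 than at day 2, among them Isg15 (1.13 ± 0.23, adjusted p = 0.0259) and Ifit3, an antiviral RNA-binding protein (1.08 ± 0.19, adjusted p = 0.00529; also picked after its values were seen). Mki67 (1.12 ± 0.21, adjusted p = 0.0116) and Ly86 (0.70 ± 0.12, adjusted p = 0.00529) were called in this step as well. Without the Ttr-rich libraries 6 genes were called, and the 5 of them among the 22 were Gfap, Cxcl10, Ccl12, EYFP and Glra1. With the leading digits of the animal number as a term 6 were called, the same 5 and Capg. Isg15, Ifit3, Mki67 and Ly86 lost their calls in both fits, with adjusted p from 0.0827 to 0.456 in the first and from 0.0616 to 0.254 in the second. With 1 library left out 10 to 26 were called, with fewest without day 3 library 1 (10), 2 (12) or 6 (13).

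**Figure D5:**
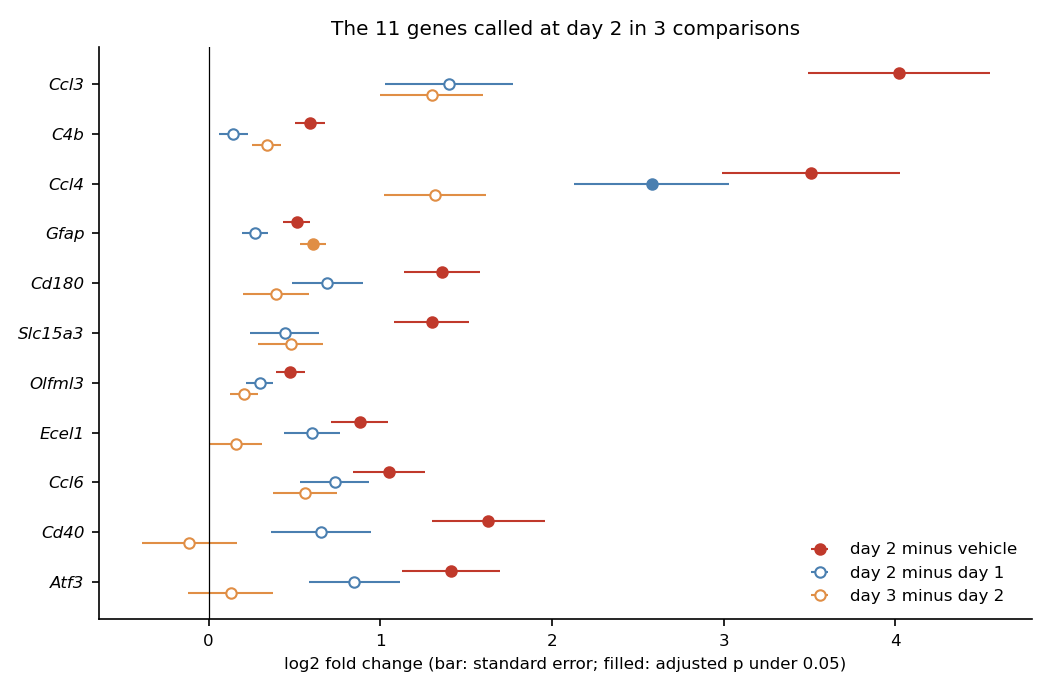
Log2 fold change (point) with its standard error (bar) of the 11 called genes in 3 comparisons, day 2 minus vehicle (red), day 2 minus day 1 (blue) and day 3 minus day 2 (orange), filled where the adjusted p is under 0.05. All red points are filled, while Ccl4 is the only filled blue point and Gfap the only filled orange point.

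No difference between the sexes was detected at day 2. The group by sex interaction was called for 0 genes in edgeR, DESeq2 and limma voom with all libraries and the filter on low counts. An unadjusted edgeR p under 0.05 was found for 596 genes, 3.55% of those tested. All 11 called genes had log2 fold changes above 0 in females alone and in males alone, where no gene was called in either sex. Ccl3 showed 3.77 in females and 6.71 in males, the latter against 2 male vehicle libraries at 0 CPM, so that its fitted size depends on the prior count. Cd180 showed 1.69 and 0.868, Ecel1 0.605 and 1.40, and Atf3 1.82 and 0.827 in females and males, and for each of the 11 the adjusted p of the interaction was 0.999. Within the 3 series of animal numbers that hold both groups (leading digits 87, 94 and 97, with 1 or 2 libraries of a group), all 11 genes were higher at day 2 than in vehicle. The signs within each sex and series were largely fixed beforehand, because the full groups did not overlap in 10 of the 11 genes. With the leading digits of the animal number as a term 8 of the 11 calls remained, all but Ccl6 (adjusted p = 0.231), Cd40 (0.231) and Atf3 (0.338).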

How the data were processed

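RNA of dissected mouse entorhinal cortex was sequenced in 24 libraries, per the labels. The deposited table holds whole-number read counts of 55417 genes, not normalized by the authors. Per the submitters' processing notes, fastp 0.23.1, STAR 2.7.9a, DESeq2 1.32.0 and the build mm39 were used; the sources used here do not give their roles, the counting program, the annotation or the use of strand. Annotated genes on the other strand overlap Gfap, Cd180, Slc15a3, Ccl6 and Atf3 in GENCODE M21. Whether reads of such pairs were told apart in the counts is not known, because the use of strand is not given. Counting error limits low genes at 16.6 to 23.7 M reads per library.

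The test was the two-sided quasi-likelihood test of edgeR 4.0.16 in R 4.3.3, with trimmed mean of M values factors and filterByExpr (minimum count 10, minimum total 15; 16767 genes kept, 43 without a symbol). The model had terms for group and sex, and all 24 libraries entered it, so that the 4 groups share the estimated dispersion (biological coefficient of variation 8.51%). P-values were adjusted by Benjamini-Hochberg across the genes tested, and genes under 0.05 are called. Fold changes carry the SE of the fit. The script was tested on simulated data. No library pair within a group agreed within sampling noise (chi-square per degree of freedom 3.94 to 13.8 over 60 pairs).

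The comparison and the 43 gene lists (561 genes in the table, 524 tested) were chosen with earlier results of these data known, so a list's count is a description. Named genes are the called genes, the 10 uncalled genes per direction with the smallest unadjusted p and a mean of at least 1 log2 CPM, the called members and up to 3 members of smallest p of each list, and EYFP, Glra1, Klk8, Reln, Calb1, Fos, Arc, Egr3, Bdnf, Atf3, Gfap, Aif1 and Ttr. A few genes that the rule takes are not reported here. Promoters came from RefSeq, where 7 of the 11 called genes matched. Alternatives were other factors, filters, tools (DESeq2 1.42.0, limma 3.58.1), models and subsets of libraries.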

Additional observations from a re-analysis of the deposited data

Results flagged for a closer look

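Within-group outliers were looked for among the 11 called and the other fixed genes, 22 genes in 2 groups of 6, by the gap between the most extreme library and its nearest neighbour as a share of the group's range (critical ratio 0.625). About 1 in 20 such groups passes by chance, and 3 of 44 did. Slc15a3 was at 4.05 CPM in day 2 library 6, where the next highest day 2 library was at 2.58 CPM (ratio 0.636). Calb1 was at 129 CPM in vehicle library 1, where the next lowest vehicle library was at 152 CPM (ratio 0.642). Ttr was at 1160 CPM in vehicle library 5, where the next highest vehicle library was at 18.9 CPM (ratio 0.991).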

How the results depend on the processing

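The 11 called genes had log2 fold changes above 0 in all 282 values from the alternatives and from leaving out single libraries. These values reuse the libraries by which the genes were called as higher, so their sign is no independent support. Against vehicle, 11 genes were called with upper-quartile or relative log expression factors, 12 without sex in the model, 8 with animal number, 86 without a filter on low counts (51 higher, 35 lower, the 11 among them), 7 with a filter of 1 CPM in 6 libraries, 18 with DESeq2 (the 11 among them), 7 with limma voom, 3 with only the libraries compared (where Ccl3 and Ccl4 failed the filter), 4 against a 1.2-fold threshold, and 0 in females or males alone. Most genes gained without a filter had also been tested in the main fit. Chosen after seeing the data, leaving out the Ttr-rich libraries gave 2 and a red blood cell covariate 7. Leaving out 1 library gave 7 to 12, the 7 without vehicle library 5 or day 2 library 2. Day 2 against day 1 gave 58 calls without a filter (41 higher, 17 lower), 1 with the CPM filter and 1 without Ttr-rich libraries. It gave 0 with animal number, only the groups compared, the fold threshold, either sex or the covariate, and 0 to 2 with 1 library left out. Day 3 against day 2 gave 79 without a filter, 36 with DESeq2, 6 with animal number, 6 with the fold threshold, 6 without Ttr-rich libraries, 0 in females, 3 in males, and 10 to 26 with 1 library left out. The interaction gave 69 without a filter and 0 with any 1 library left out. The cause of these shifts was not tested. Of 76 uncalled genes followed 9 changed sign somewhere: Fos (males -0.937, without Ttr-rich libraries -0.127, red cell covariate -0.296, single libraries left out -0.0186 to 0.349, below 0 without day 2 library 2), Arc (limma voom -0.135, without sex -0.00758, males -1.09, without Ttr-rich libraries -0.268, covariate -0.44, single libraries left out -0.148 to 0.309), Calb1 (females -0.0411, single libraries left out -0.0284 to 0.0385), Reln (single libraries left out -0.00492 to 0.0966), Klk8 (males 0.0835), EYFP and Glra1 (animal number 0.00725 and 0.0602), Ifit3 (without Ttr-rich libraries -0.0157) and Ttr (covariate -4.01). No paired analysis was possible because the labels give the groups no shared replicate numbers; the leading digits of the animal number were fitted as a term instead, with the counts given above. Depth limits genes under 1 log2 CPM, whose median standard error was 0.298.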
